A study of Macaca mulatta with 24 samples.

Results

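Translation initiation factors (eIFs) and elongation factors (eEFs) were followed in the blood of rhesus macaques through the first week after total body irradiation. A gene belonged to the set when the array's own annotation gave it a symbol beginning with EIF1 to EIF6, EEF1 or EEF2, leaving out the eIF2 kinases (EIF2AK) and the eIF4E-binding proteins (EIF4EBP). The rule found 46 genes with 88 probes, of 14429 named genes and 43603 non-control probes on the array. Each gene was read from its brightest probe, the one with the highest mean signal over the 24 arrays. All 46 genes passed the filter on dim probes, as did 10547 of all named genes, and 42 of the 46 brightest probes were well above background on every array. EEF1AKMT3 was so on 19 arrays, EIF1AY on 15, EIF5A2 on 13 and EIF4E1B on 10.

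The samples were whole blood RNA of 7 macaques (Macaca mulatta), adults of Chinese origin, each hybridised alone to an Agilent Rhesus array with Cy3. There were 7 arrays from before irradiation (0 Gy, 4 males and 3 females), 4 from day 3 (3 males and 1 female), 6 from day 5 (4 males and 2 females) and 7 from day 7 (4 males and 3 females) after 4 Gy to the whole body. All blood RNA had been depleted of globin transcripts. The sample labels name X-rays where the study's methods name a cobalt gamma source. No unirradiated animal sampled on the later days was among the arrays, so irradiation and the time and repeated bleeding that went with it cannot be told apart. The 3 days were each compared with the same 7 pre-irradiation arrays, and the 3 comparisons are therefore not independent.

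Translation begins when eIF2 brings the initiator tRNA to the small ribosomal subunit, with eIF1, eIF1A and the many-subunit eIF3 holding the complex open for scanning. The eIF4 group binds the mRNA cap and unwinds the leader, and eIF5 and eIF5B bring about the joining of the large subunit. The eEF1 complex then delivers each aminoacyl-tRNA and eEF2 moves the ribosome by a codon. The mRNAs of many elongation factors and ribosomal proteins begin with a terminal oligopyrimidine (TOP) tract, and resting lymphocytes are known for holding large amounts of them.

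Of the 46 factors, 13 were lower on day 3, 14 on day 5 and 8 on day 7, and 0 were higher on any of the 3 days. The threshold was a Benjamini-Hochberg adjusted p under 0.005 over all probes tested, in limma fits of the arrays of the 2 groups compared, and "fell" or "called" below means past that threshold. Over all named genes tested, the share called lower was 7.54% on day 3, 9.05% on day 5 and 7.14% on day 7, and the share called higher was 5.89%, 6.25% and 2.7%. At an unadjusted p under 0.05, 23, 29 and 23 of the 46 differed in either direction. The share of all genes at that cutoff is not given, here or for the unadjusted counts below. At an adjusted p under 0.05, 19, 23 and 16 of the 46 passed. So did 9696 of 27132 probes on day 3, 9629 of 27138 on day 5 and 7503 of 27138 on day 7. The median log2 change of the 46 factors was −0.43 on day 3, −0.42 on day 5 and −0.33 on day 7, where the median of all named genes was −0.0046, −0.0049 and −0.011. The size depended on the normalization. The factor median was −0.32, −0.24 and −0.089 under quantile normalization. With the authors' normalized values, which held 28 of the factors, it was −0.74, −0.71 and −0.79. Each of the 4, 6 and 7 arrays taken after irradiation had a factor median below the pre-irradiation mean. In whole blood, fewer cells of a type and less RNA per cell cannot be told apart.

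The arrays lay on 6 slides of 4, scanned in 2 sessions, and the days were spread unevenly over them. The first session held 6 pre-irradiation and 6 day 7 arrays, and the second held the remaining pre-irradiation and day 7 array with all day 3 and day 5 arrays. Against the 1 pre-irradiation array of the second session, the median difference of the 46 factors was −0.41 on day 3 and −0.34 on day 5, with 33 and 31 of the 46 below 0. With scan session as a block and all groups in 1 fit, 1 factor (EEF2) was called on day 3, 6 on day 5 and 12 on day 7. The median change on day 3 was −0.51 with the session block, −0.51 with the slide block and −0.47 with the animal block, where the fit without a block gave −0.43. Within the first session alone, day 7 against pre-irradiation gave 6 called factors, EEF1D, EEF2, EIF1B, EIF3E, EIF3K and EIF5. In the second session, 1 day 7 array against 1 pre-irradiation array of the same animal gave a median difference of −0.10, with 28 of the 46 below 0. With the animal as a block (same-numbered arrays paired), 2 factors were called on day 3 (EEF2 and EEF1E1), 10 on day 5 (without EIF1AX, EIF3G, EIF3H and EIF4A2) and 5 on day 7 (EEF1D, EEF2, EIF1B, EIF3E and EIF3K). Without normalization between arrays the counts were 1, 1 and 0, and under normexp background correction 0, 1 and 1. The day 3 count rested on few arrays. Leaving out animal 4 left 1 call, leaving out animal 1 or 7 left 2, and leaving out animal 2 left 4. The day 5 count was 8 without animal 1, 7 without animal 2 and 9 without animal 4.

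**Figure D1:**
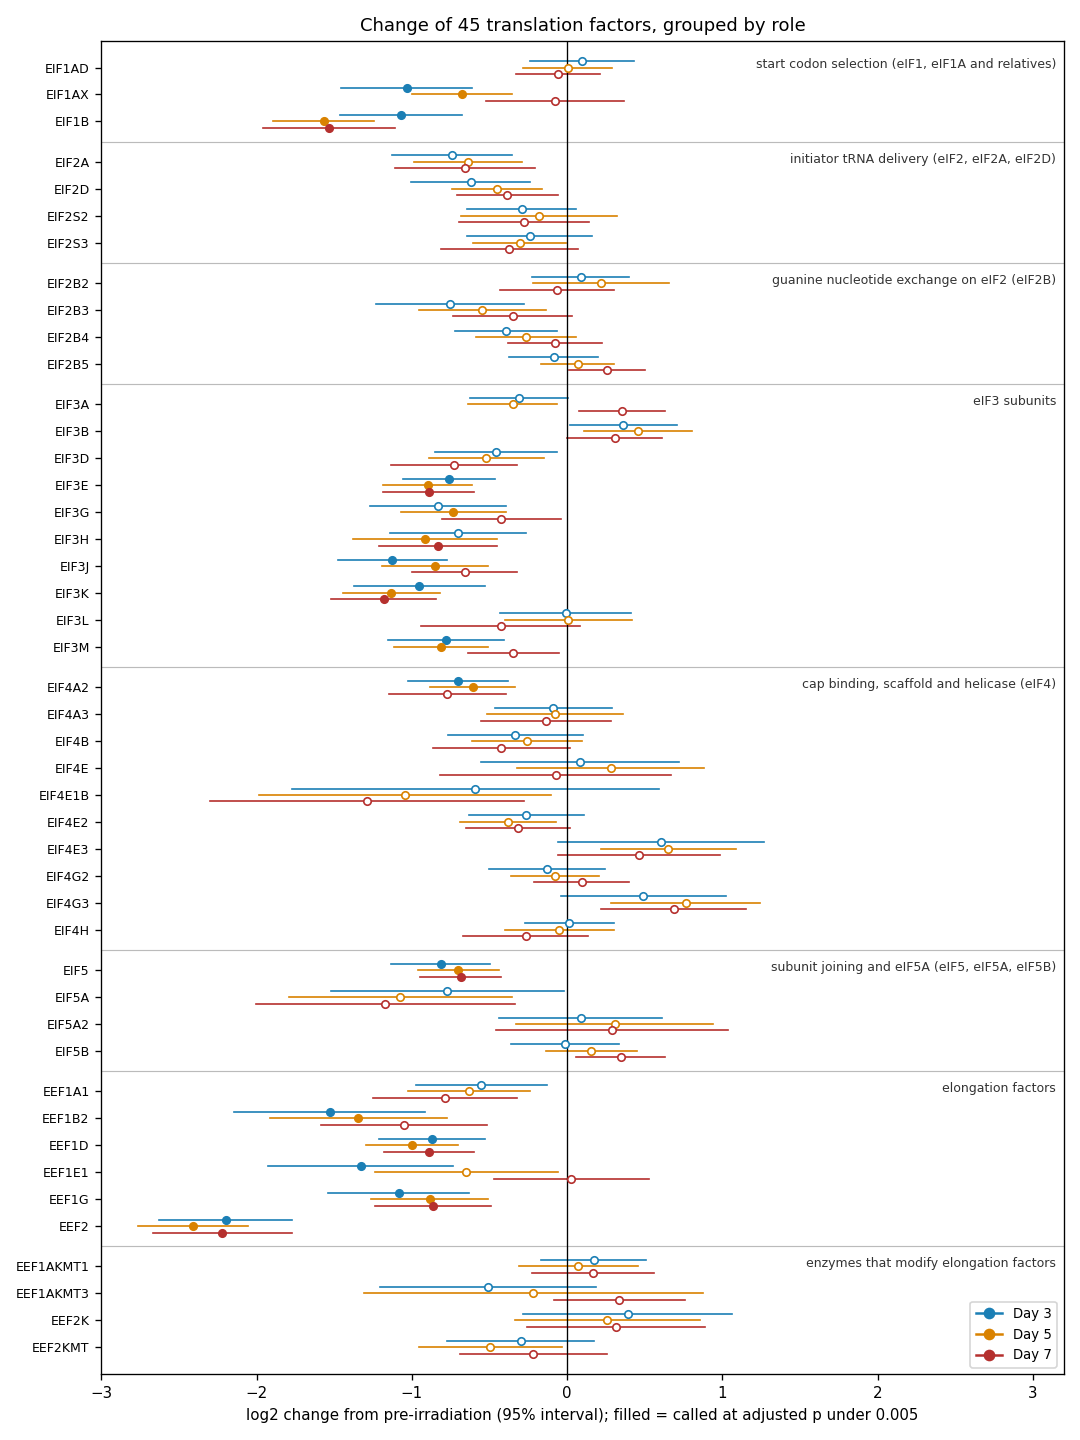
Log2 change from pre-irradiation (horizontal axis) of 45 factors on day 3, day 5 and day 7, grouped by role, with 95% intervals and filled points for factors called at an adjusted p under 0.005. EIF1AY is left out because its level followed sex. The filled points all lie left of 0, with EEF2 farthest out at −2.20, −2.41 and −2.22.

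Of the 6 elongation factors, counting EEF1E1, 5 were called lower on day 3, 4 on day 5 and 3 on day 7. Differences between the role groups were not tested. Their median log2 change was −1.21, −0.94 and −0.88. EEF2, the translocase that moves the ribosome along the mRNA, showed the largest change of all 46 factors on each of the 3 days. It had a single probe on the array, annotated to chr19:3815241-3815300 on the minus strand of rheMac2, the build named in the scanner headers. Its first 30 bases are shown because the leading change rests on this probe alone.
EEF2: caaccttaacacttgatgccgtttctttcg

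The normalized log2 signal of EEF2 was 15.38 at the lowest, 15.81 at the median and 16.14 at the highest of the 7 pre-irradiation arrays. The 4 day 3 arrays read 13.25, 13.49, 13.62 and 14.03. The day 5 arrays ran from 13.03 over a median of 13.40 to 13.69, and the day 7 arrays from 12.91 over 13.57 to 14.28. Every array after irradiation was thus below every array before it. The level was 4.59-fold lower on day 3 (log2 change −2.20 ± 0.20 SE, adjusted p = 3.2e-05), 5.31-fold lower on day 5 (−2.41 ± 0.17 SE, adjusted p = 2.69e-07) and 4.66-fold lower on day 7 (−2.22 ± 0.21 SE, adjusted p = 8.45e-06). Within the scan sessions the difference was −2.21 on day 3 and −2.42 on day 5 against 1 pre-irradiation array, and −2.26 on day 7 with 6 arrays a group. Leaving out any 1 animal kept the call on all 3 days. The call was lost in 1 alternative on each day, with adjusted p = 0.0093 under normexp background correction on day 3, 0.00968 with slide as a block on day 5 and 0.013 without normalization on day 7.

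EEF1B2, EEF1D and EEF1G belong to the exchange complex that reloads eEF1A with GTP. EEF1B2, the exchange subunit eEF1B alpha, read 14.57 to 16.05 before irradiation (median 14.87), and 13.26, 13.41, 13.79 and 13.96 on day 3. It ran from 13.39 to 14.48 on day 5 (median 13.70) and from 13.35 to 14.56 on day 7 (median 14.11). No later array reached the lowest pre-irradiation array, though the margin on day 7 was narrow. EEF1B2 fell by 1.53 ± 0.28 (SE, log2) on day 3 (adjusted p = 0.00207) and by 1.34 ± 0.27 on day 5 (adjusted p = 0.00163). Its day 7 change of −1.05 ± 0.25 missed the threshold (adjusted p = 0.00668). The call was kept in 7 of 12 alternatives and 3 of 7 fits with an animal left out on day 3, and in 8 of 12 and 4 of 7 on day 5. The animal block ended it on day 3.

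EEF1D, the exchange subunit eEF1B delta, went from 15.96 to 16.54 before irradiation (median 16.16) to 15.12, 15.27, 15.33 and 15.61 on day 3. On day 5 it lay between 14.88 and 15.51 and on day 7 between 15.07 and 15.65, again with no overlap. The log2 changes were −0.87, −1.001 and −0.89, with SE between 0.14 and 0.16 and adjusted p = 0.00183, 0.000122 and 0.000307. The second EEF1D probe was not called on any day (−0.75, −0.60 and −0.77, adjusted p = 0.015, 0.0157 and 0.00697). EEF1G, the structural subunit eEF1B gamma, changed by −1.08, −0.88 and −0.86 (SE 0.21, 0.18 and 0.18, adjusted p = 0.00252, 0.00167 and 0.00221). Its pre-irradiation arrays lay between 15.99 and 16.91 and all 17 later arrays at or below 15.90. All 3 EEF1G probes were called on all 3 days. The animal block ended the day 3 call of both EEF1D and EEF1G and the day 7 call of EEF1G, which was kept in 2 of 7 fits with an animal left out. EEF1D kept its call in all 7 such fits on days 5 and 7 and in 4 of 7 on day 3. Quantile normalization ended the EEF1D call on all 3 days and the EEF1G call on days 5 and 7. Over the alternatives the day 7 change of EEF1D ran from −0.945 to −0.215.

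EEF1A1, the factor that carries aminoacyl-tRNA to the ribosome, did not pass the threshold at its brightest probe. It read 17.43 to 18.18 before irradiation, 16.83 to 17.46 on day 3, 16.62 to 17.58 on day 5 and 16.02 to 17.63 on day 7. The groups overlapped on each day, by 1 array after irradiation each time, and the log2 changes were −0.55, −0.63 and −0.78 (adjusted p = 0.0443, 0.0161 and 0.0151). All 4 EEF1A1 probes had a negative change on all 3 days, though under quantile normalization the day 7 change at the brightest was 0.067, and 1 of the other 3 was called on day 5 (−1.17, adjusted p = 0.00416). Of 2 further probes described as eEF1A1 and well above background, outside the 46, 1 was called on day 5 (−0.65, adjusted p = 0.00473) and the other on no day (−0.41, −0.58 and −0.77).

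**Figure D2:**
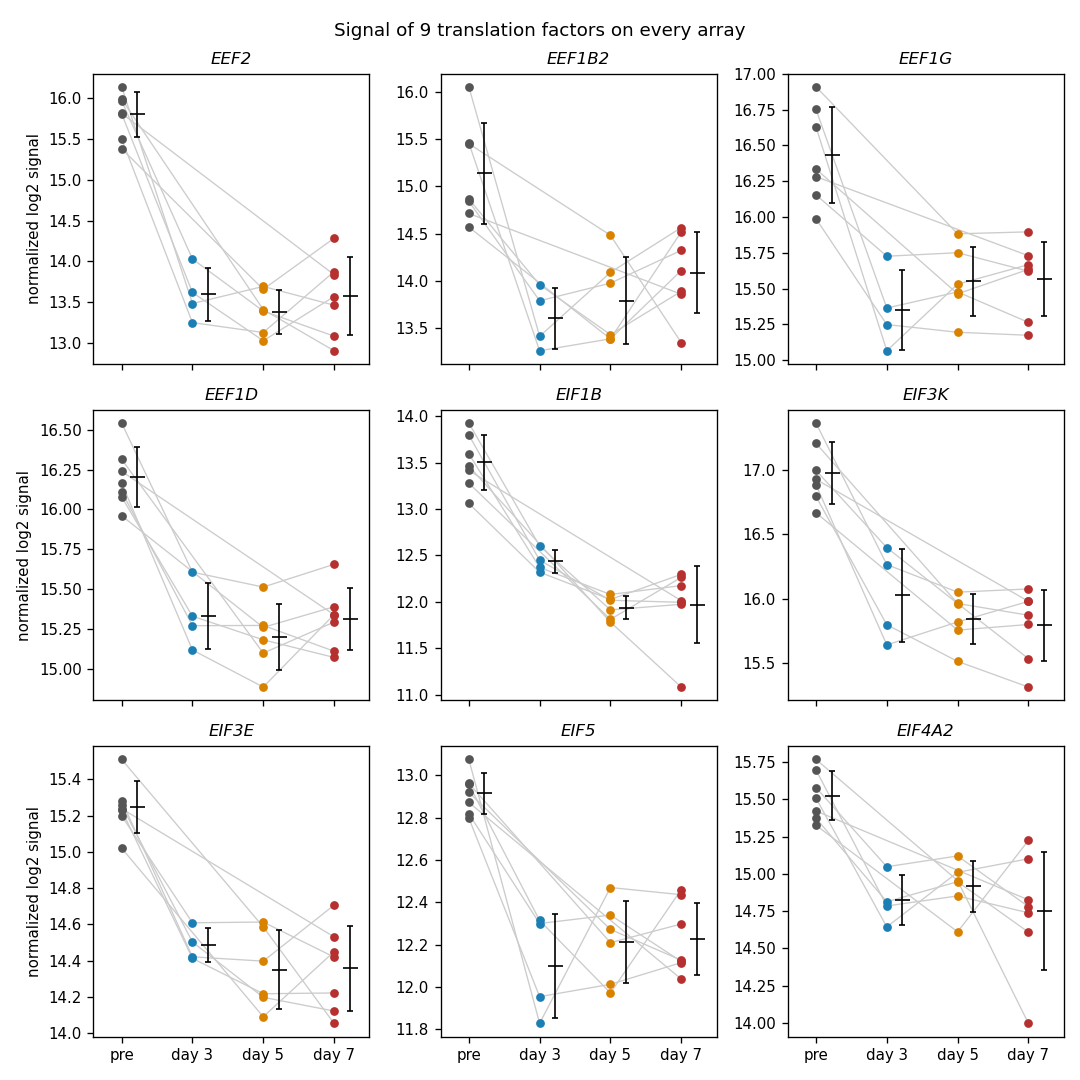
Normalized log2 signal (vertical axes, each with its own range) of 9 factors on every array, by group, with grey lines joining the arrays of an animal and black bars giving mean ± SD. For EEF2 the lowest pre-irradiation array is at 15.38 and the highest later array at 14.28.

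EEF1E1, a small eEF1-related protein that sits in the multi-synthetase complex and is also known to take part in the DNA damage response, was called lower on day 3 alone. Its course was not tested against that of the other factors. Its only probe lay at chr4:8004912-8004971 on the minus strand of rheMac2, and its first 30 bases are given because it is the 1 factor called between days.
EEF1E1: gtagtttgttaagaactgtgataaattgtg

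The signal of EEF1E1 was 8.23 to 9.62 before irradiation (median 9.34) and 7.45, 7.63, 7.77 and 8.07 on day 3. It was 7.52 to 8.93 on day 5 (median 8.56) and 8.69 to 9.63 on day 7 (median 9.17). The day 3 arrays lay below all arrays of the pre-irradiation and day 7 groups, while the day 7 and pre-irradiation arrays overlapped. The fall on day 3 was 2.51-fold (log2 change −1.33 ± 0.27 SE, adjusted p = 0.00357). The changes on day 5 (−0.65 ± 0.28, adjusted p = 0.0813) and day 7 (0.03 ± 0.23, adjusted p = 0.944, 95% interval −0.47 to 0.53) were not called. The day 3 call was kept with the animal as a block and lost with slide or session as a block and in 5 of 7 fits with an animal left out. Within the second session, with 1 pre-irradiation array, the difference was −0.50 on day 3 and 0.18 on day 5.

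Between the days, EEF1E1 was 2.56-fold higher on day 7 than on day 3 (log2 change 1.36 ± 0.22 SE, adjusted p = 0.00464), in all 4 animals sampled on both days. It was the only factor called of the 46 in that comparison, a count near the background, as 1.61% of all named genes were called in either direction. Leaving out any 1 animal, or the day 7 array of lowest signal, ended this call, as did the animal, slide and session blocks, and over all alternatives the adjusted p ran from 0.001426 to 0.4926. With session as a block the difference was 0.75. All but 1 of the day 7 arrays were scanned in another session than the day 3 arrays. No factor was called between day 5 and day 3 (2 at an unadjusted p under 0.05, with 0.0379% of all named genes called) or between day 7 and day 5 (4 at an unadjusted p under 0.05, with 0.00948% called).

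Of the start codon factors, EIF1B, a close relative of eIF1 that guards the choice of the start codon, fell on all 3 days. It read 13.06 to 13.93 before irradiation (median 13.46), 12.32, 12.37, 12.45 and 12.60 on day 3, 11.78 to 12.08 on day 5 (median 11.97) and 11.08 to 12.30 on day 7 (median 12.01). No later array overlapped the earlier ones. The fall was 2.10-fold on day 3 (log2 change −1.07 ± 0.18 SE, adjusted p = 0.00127), 2.96-fold on day 5 (−1.57 ± 0.15, adjusted p = 6.49e-06) and 2.90-fold on day 7 (−1.53 ± 0.20, adjusted p = 7.8e-05). The call was kept in all 7 fits with an animal left out on days 5 and 7, and on day 3 in 4 of 7 and not with the animal as a block.

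The array carried 2 EIF1B probes, and both fell by nearly the same amount (−1.04, −1.47 and −1.49 at the other one). The probes share a run of 19 bases, in capitals in the 30-base stretches below, so they are not fully separate readings. The brightest lay at chr2:96227306-96227365 and the other at chr2:96226870-96227324, a span of 455 bases for a 60-base probe, both on the minus strand of rheMac2.
EIF1B brightest probe: aagaaaaaacaTTTGCCAGTTTCTCTTGGA
EIF1B other probe: TTTGCCAGTTTCTCTTGGAggttggcattg
A probe described as eIF1 itself, but without a symbol and so outside the 46, changed by −0.94, −1.35 and −1.20 and was called on all 3 days (adjusted p = 0.00168, 1.21e-05 and 3.22e-05). Its longest run shared with an EIF1B probe was 9 bases.

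EIF1AX, the X-linked copy of eIF1A, which helps the small subunit scan, was called on days 3 and 5 and not on day 7. It read 11.33 to 11.95 before irradiation, 10.03, 10.56, 10.64 and 10.78 on day 3, 10.67 to 11.12 on day 5 and 10.85 to 12.19 on day 7. Only the day 7 arrays overlapped the pre-irradiation arrays. It fell by 1.03 ± 0.19 (SE, log2) on day 3 (adjusted p = 0.00224) and by 0.68 ± 0.15 on day 5 (adjusted p = 0.00335). The day 7 change was −0.08 ± 0.21 (adjusted p = 0.812). The difference between day 7 and day 3 was 0.96 ± 0.27 (adjusted p = 0.0339) and was not called. The day 5 call was kept in 2 of 12 alternatives and 0 of 7 fits with an animal left out, and the day 3 call in 7 of 12 and 3 of 7. The animal, slide and session blocks ended the call on both days. EIF1AX, EIF3G, EIF3H, EIF3J, EIF3M and the uncalled EIF4G3, EIF3A, EIF3B and EIF4E1B were chosen for description after their values had been seen.

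EIF1AY, the Y-linked copy, was detected on the arrays of males alone, all 15 of them. On males it read 10.45 to 10.78 before irradiation, 9.46 to 9.64 on day 3, 9.77 to 10.50 on day 5 and 10.09 to 10.92 on day 7, and on females 3.29 to 4.50 over all groups. Within the males the 3 day 3 arrays lay below the 4 pre-irradiation arrays, while the day 7 arrays spanned them. The fit over both sexes had an SE of 1.70 to 1.84 on the log2 scale (adjusted p = 0.841, 0.902 and 0.988). Its probe is annotated to chr20:73521558-73521618 of rheMac2 and shared no run longer than 8 bases with the EIF1AX probe.

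**Figure D3:**
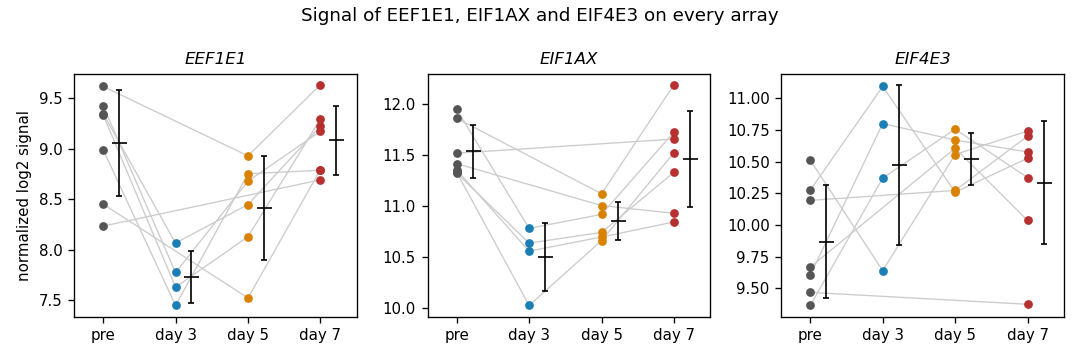
Normalized log2 signal (vertical axes, each with its own range) of EEF1E1, EIF1AX and EIF4E3 on every array, by group, with grey lines joining the arrays of an animal and black bars giving mean ± SD. The day 3 arrays of EEF1E1 end at 8.07 and the day 7 arrays begin at 8.69, while the groups of EIF4E3 overlap.

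The eIF3 subunits, which build the scaffold between the small ribosomal subunit and the eIF4 group, had 4 of 10 measured members called lower on day 3, 6 on day 5 and 3 on day 7. Their median log2 change was −0.73, −0.77 and −0.54. EIF3K and EIF3E were called on all 3 days in the fits without a block, and with the animal as a block on days 5 and 7. The day 7 call of both was lost under quantile normalization, without normalization and under normexp. Over the alternatives their day 7 changes were −0.38 and −0.39 at the smallest. EIF3K read 16.67 to 17.36 before irradiation, 15.64, 15.80, 16.27 and 16.40 on day 3, 15.51 to 16.05 on day 5 and 15.32 to 16.08 on day 7, with no overlap. Its log2 changes were −0.95, −1.13 and −1.18 (SE 0.19, 0.15 and 0.16, adjusted p = 0.00343, 7.15e-05 and 0.000104). The day 3 call was kept in 4 of 12 alternatives and 1 of 7 fits with an animal left out, and was lost among others under quantile normalization and with the authors' values.

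EIF3E, the subunit also known as INT6, read 15.02 to 15.51 before irradiation and 14.41, 14.42, 14.50 and 14.61 on day 3. It lay between 14.09 and 14.61 on day 5 and between 14.05 and 14.71 on day 7, below all pre-irradiation arrays. The log2 changes were −0.76, −0.90 and −0.89 (SE 0.14, 0.13 and 0.14, adjusted p = 0.00172, 0.000202 and 0.000322). The day 3 call of EIF3E was kept in 6 of 12 alternatives and 3 of 7 fits with an animal left out. The second EIF3E probe was called on days 3 and 5 and not on day 7 (−0.51, adjusted p = 0.0538).

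EIF3J, a loosely bound subunit, fell on day 3 (−1.12, adjusted p = 0.000541) and day 5 (−0.85, adjusted p = 0.0011), and EIF3M on day 3 (−0.78, adjusted p = 0.0048) and day 5 (−0.81, adjusted p = 0.000655). EIF3G was called on day 5 only among the 3 comparisons (−0.73, adjusted p = 0.00281). Its mean was no higher on day 3, at 10.89 against 10.99 on day 5 and 11.73 before irradiation. EIF3H fell on day 5 (−0.92, adjusted p = 0.00496) and day 7 (−0.83, adjusted p = 0.00329). The day 5 calls of EIF3G and EIF3H were lost with the animal as a block and kept in 2 and 1 of 7 fits with an animal left out, and the day 7 call of EIF3H was likewise lost with the block and kept in 1 of 7. The day 3 calls of EIF3J and EIF3M were lost with the block, and that of EIF3M in all 7 fits with an animal left out. Differences between days were not called for these 4 genes. EIF3H on day 5 was the only called factor with overlapping groups, 1 of 6 arrays reaching the pre-irradiation range. The share of all genes without overlap is not given here. Lack of overlap comes from the same arrays as the calls and is not separate support. On day 3, 19 of the 46 factors had all arrays below all pre-irradiation arrays, where 13 were called.

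EIF3M shows how close to the threshold some calls lay. Its probes at chr14:39191330-39191389 (the brightest) and chr14:39191363-39191422, both on the minus strand of rheMac2, share 27 bases, in capitals below. Both had negative changes, yet the second was not called on day 3 (−0.64, adjusted p = 0.0164) or day 5 (−0.58, adjusted p = 0.00511).
EIF3M brightest probe: GTGAAAAACAGCCTTTTGAGTCTTTCTgat
EIF3M other probe: aaaGTGAAAAACAGCCTTTTGAGTCTTTCT

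EIF3B, a core subunit, was above its pre-irradiation mean by 0.36, 0.46 and 0.31 (adjusted p = 0.0906, 0.0403 and 0.128), and EIF3A, the largest subunit, went from −0.31 and −0.35 to 0.35 on day 7 (adjusted p = 0.112, 0.0563 and 0.0548). Neither was called. EIF3A differed by 0.66 between day 7 and day 3 (adjusted p = 0.0297) and by 0.70 between day 7 and day 5 (adjusted p = 0.0349), also short of the threshold.

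EIF5, which triggers GTP hydrolysis by eIF2 at the start codon, fell on all 3 days, and it was the 1 of 4 factors called in the group of eIF5, eIF5A and eIF5B. It read 12.80 to 13.07 before irradiation, 11.83, 11.95, 12.30 and 12.31 on day 3, 11.97 to 12.47 on day 5 and 12.04 to 12.46 on day 7. The groups before and after irradiation did not overlap. The log2 changes were −0.81, −0.70 and −0.69 (SE 0.15, 0.12 and 0.12, adjusted p = 0.00176, 0.000668 and 0.000863). With the animal as a block it was called on day 5 and not on day 3 or 7. Only some of the EIF5 probes were called on each day. The day 3 call was kept in 7 of 12 alternatives and 3 of 7 fits with an animal left out. The day 7 call was kept in all 7 such fits and lost under quantile normalization and with the authors' values.

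EIF5A, a factor that keeps the ribosome moving through hard stretches such as proline runs, was not called. It read 8.06 to 10.20 before irradiation, 7.67, 8.43, 8.46 and 8.50 on day 3, 7.36 to 8.90 on day 5 and 6.77 to 8.93 on day 7, with overlap on each day. The changes were −0.77, −1.07 and −1.17 with SE of 0.35, 0.34 and 0.39 (adjusted p = 0.0999, 0.0229 and 0.0368). Every sampled animal was lower than before irradiation on each day (4 of 4, 6 of 6 and 7 of 7).

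The eIF4 group had 1 of 10 members called lower on days 3 and 5 and 0 of 10 on day 7 (3 at an unadjusted p under 0.05). Of all named genes, 7.54%, 9.05% and 7.14% were called lower, so these counts were near the background. The median change of the group was −0.11, −0.08 and −0.20. The called member was EIF4A2, an RNA helicase of the eIF4F complex. It read 15.33 to 15.77 before irradiation, 14.64, 14.78, 14.81 and 15.05 on day 3, 14.61 to 15.12 on day 5 and 14.00 to 15.22 on day 7, without overlap. Its changes were −0.70, −0.61 and −0.77 (SE 0.15, 0.13 and 0.18, adjusted p = 0.00394, 0.00251 and 0.00505), the last just short of the threshold, and another of its 4 probes was called on all 3 days. The call at the brightest probe was kept in 3 of 12 alternatives and 1 of 7 fits with an animal left out on both day 3 and day 5, and the animal, slide and session blocks ended it.

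EIF4E, the cap-binding protein, showed no called change (0.08, 0.28 and −0.07, with 95% intervals from −0.55 to 0.72, −0.32 to 0.88 and −0.82 to 0.67). Its arrays lay between 6.53 and 7.82 before irradiation, 6.77 and 7.63 on day 3, 6.94 and 8.21 on day 5, and 6.05 and 8.14 on day 7, so all groups overlapped. EIF4E1B, an oocyte-type relative near background here (−0.59, −1.04 and −1.29, adjusted p = 0.415, 0.0784 and 0.0555), had the only probe sharing 15 bases or more with the probe of another factor. The 16 shared bases with EIF4E are in capitals, in stretches of the probes at chr5:91794364-91794423 (minus strand) and chr6:173133829-173133888 (plus strand).
EIF4E: ttatcagtCCCACGCAGACACAGCtactaa
EIF4E1B: gCCCACGCAGACACAGCcaccaagagcaac

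EIF4E3, a cap-binding relative of eIF4E, had the largest positive change of the 46 factors on day 3, and EIF4G3, a scaffold protein, on days 5 and 7, without passing the threshold. EIF4E3 read 9.36 to 10.51 before irradiation, 9.64, 10.37, 10.80 and 11.09 on day 3, 10.26 to 10.76 on day 5 and 9.37 to 10.74 on day 7. The groups overlapped and the changes were 0.61, 0.65 and 0.46 (SE 0.30, 0.20 and 0.24, adjusted p = 0.138, 0.0227 and 0.174). EIF4G3 changed by 0.49, 0.76 and 0.69 (adjusted p = 0.135, 0.0165 and 0.0302). A probe described as eIF4G1 but carrying no symbol, outside the 46, rose on day 5 (0.74, adjusted p = 0.00272) and day 7 (0.82, adjusted p = 0.0012), whereas another probe described as eIF4G1 did not pass (−0.41 and 0.27, adjusted p = 0.14 and 0.461). Probes described as eIF4A1 (−0.47, −0.35 and −0.12) and eIF3I (−0.41, −0.11 and −0.05), also without a symbol, were called on no day. The same held for probes described as the delta subunit of eIF2B and as the eIF4E nuclear import factor.

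EIF4B, which stimulates the helicase, depended on the probe. Its brightest probe, at chr11:50102362-50102431 on the plus strand of rheMac2, read 13.23 to 14.12 before irradiation, 12.93 to 13.68 on day 3, 13.17 to 13.74 on day 5 and 12.63 to 13.92 on day 7, overlapping throughout. Its changes of −0.33, −0.26 and −0.42 were not called (adjusted p = 0.212, 0.241 and 0.142). On day 5 the probes at chr11:50097826-50097885 (−0.87, adjusted p = 0.0004) and chr11:50083778-50088924 (−0.78, adjusted p = 0.00155) were called and the remaining 2 were not (−0.21 and −0.25).

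**Figure D4:**
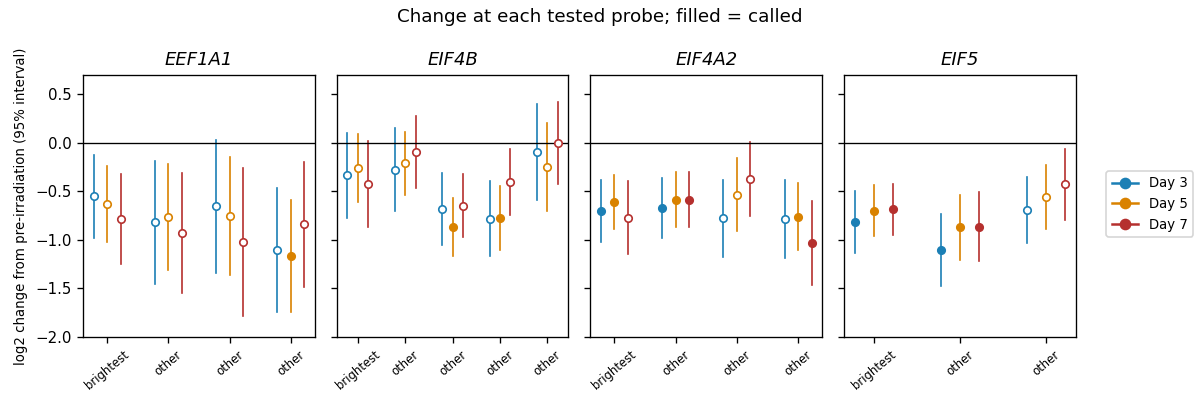
Log2 change from pre-irradiation with 95% interval (vertical axis) at each tested probe of EEF1A1, EIF4B, EIF4A2 and EIF5 on day 3, day 5 and day 7, the brightest probe first and called changes filled. Of the 5 EIF4B probes, 2 were called on day 5, at −0.87 and −0.78, and the brightest lay at −0.26.

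Across the 25 factors with more than 1 tested probe (62 probes), the probes of 24 pointed the same way on each day. Of these probes, 8 pairs of the same gene share a run of 18 to 48 bases (EIF1B, EIF2B2, EIF2D, EIF3D, EIF3J, EIF3K, EIF3M and EIF4G2) and are not fully separate readings. All probes were called for 5 of them on day 3, 4 on day 5 and 3 on day 7, and only some probes for 4, 7 and 4. The exceptions in direction were EIF2B2 on day 3 and EIF2B5 on days 5 and 7, all with changes short of the threshold.

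None of the 4 measured factors that deliver the initiator tRNA (EIF2A, EIF2D and the eIF2 subunits EIF2S2 and EIF2S3) was called on any day in the limma fits, with 2, 3 and 2 at an unadjusted p under 0.05. All 4 had negative changes on each day, with medians of −0.46, −0.38 and −0.38. The 4 measured subunits of eIF2B (EIF2B2 to EIF2B5), the exchange factor that recharges eIF2, had 0 calls as well (2, 1 and 1 at an unadjusted p under 0.05) and medians of −0.24, −0.10 and −0.07. The 4 enzymes that modify elongation factors had 0 calls on each day (0, 1 and 0 at an unadjusted p under 0.05). Among these, EEF2K, the kinase that inhibits eEF2, read 7.36 to 8.94 before irradiation, 7.89 to 8.97 on day 3, 7.87 to 9.16 on day 5 and 7.74 to 9.36 on day 7. The groups overlapped, and its changes of 0.39, 0.26 and 0.32 had 95% intervals from −0.28 to 1.06, −0.34 to 0.86 and −0.26 to 0.89. For role groups of 4 genes, 0 calls were near the background of 7.54%, 9.05% and 7.14% of all named genes called lower.

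**Figure D5:**
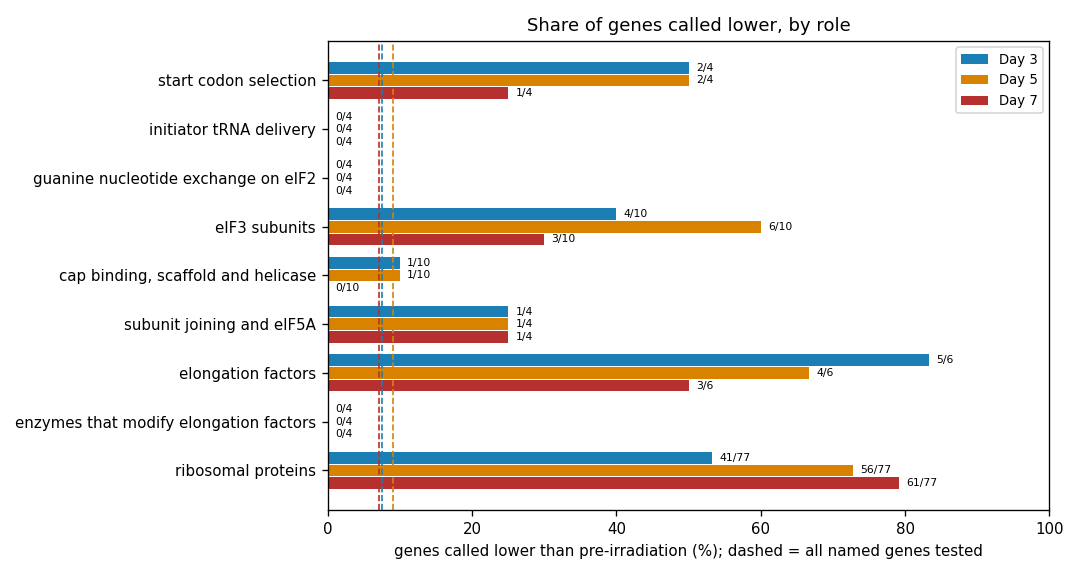
Percent of the tested genes of each role, and of the ribosomal proteins, called lower than pre-irradiation on day 3, day 5 and day 7, with the counts beside the bars. Dashed lines give the shares of all named genes tested, 7.54%, 9.05% and 7.14%, and the elongation factors reach 5 of 6, 4 of 6 and 3 of 6.

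Over the 3 days, 7 factors were called each time (EEF1D, EEF1G, EEF2, EIF1B, EIF3E, EIF3K and EIF5), and 31 on no day. The share of all named genes called on all 3 days is not given here, so these counts have no background beside them. The 3 comparisons share their pre-irradiation arrays, so a factor called on several days was not called on independent grounds. With the animal as a block, EEF2 alone was called on all 3 days.

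Of 9 factors known as TOP mRNAs, 8 had a probe. Of these 5 fell on day 3, 6 on day 5 and 5 on day 7, with median changes of −0.82, −0.91 and −0.88 and all 8 negative each time. With the animal as a block, EEF2 alone of these 8 was called on day 3. That block left EEF1B2, EEF1D, EEF1G, EEF2 and EIF3E called on day 5, and EEF1D, EEF2 and EIF3E on day 7. The cytosolic ribosomal proteins, the largest TOP family, had 41, 56 and 61 of 77 tested members called lower, with medians of −1.02, −1.09 and −1.13. The 1 member called higher on each day was RPS27L, a p53-induced relative of RPS27 (1.34, 1.13 and 1.08, adjusted p = 0.000419, 0.000496 and 0.000491).

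Among 21 other translation factors outside the name rule, 3, 4 and 4 fell and 0 rose. BTF3, which guides nascent chains, fell on all 3 days (−1.39, −1.52 and −1.12), as did PAIP2, an inhibitor of the poly(A)-binding protein (−0.82, −1.15 and −1.29). TPT1, a TOP mRNA, fell on day 5 (−1.62) and day 7 (−2.09). Of 25 regulators of translation, 1 rose and 1 fell on day 3, 3 rose and 1 fell on day 5, and 0 were called on day 7 (10 at an unadjusted p under 0.05). Of all named genes, 5.89% rose and 7.54% fell on day 3 and 6.25% and 9.05% on day 5, so the counts of regulators, and that of 1 of 17 tRNA synthetases below, were near or under the background except the 3 regulators that rose on day 5. PDCD4, which blocks the helicase eIF4A, fell on day 3 (−1.60) and day 5 (−1.43). ATF3, a stress-induced transcription factor, rose on both days (2.53 and 2.11), and the eIF2 kinase EIF2AK2 (1.75) and the eIF4E kinase MKNK1 (0.74) rose on day 5. Of 17 cytosolic tRNA synthetases, WARS rose on day 3 (2.39) and day 5 (2.06) and the others were not called, with 0 of 17 on day 7 (5 at an unadjusted p under 0.05).

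Markers of blood cell types moved over the same days. All 8 tested of 10 B cell markers were lower on each day, and their mean log2 signal went from 11.04 to 11.34 on the pre-irradiation arrays to 7.23 to 8.65 on the later ones. Of the 8 erythroid markers, 7 were lower on day 3 and 8 on days 5 and 7, their mean going from 11.88 to 13.65 down to 5.76 to 10.88. All 6 tested platelet markers were higher on day 3, 2 on day 5 and 0 on day 7. The 8 tested T cell markers had 0 calls on any day (4, 3 and 1 at an unadjusted p under 0.05), with means of 12.80 to 13.19 before and 11.97 to 13.39 after. The 7 NK cell markers had 0 calls on any day (1, 0 and 1 at an unadjusted p under 0.05), and of 6 monocyte and 6 neutrophil markers 1 each was higher on days 3 and 5. The part of these cell types in the changes of the translation factors was not tested.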

How the data were processed

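Blood RNA was collected in PAXgene tubes, depleted of globin transcripts, labelled with Cy3 and hybridised to 24 Agilent Rhesus arrays (per the labels; the study's methods name the human array). The authors deposited each array's scanner file, whose processed signal is a background-subtracted intensity from Agilent Feature Extraction (10.7 per the labels, 12.0.2.2 per the file headers). They also deposited a table of log2 values normalized to the median array, which served as an alternative. It held 18497 probes, and 0 of its columns went unmatched.

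Here the log2 of the intensity was averaged over the spots of a probe, leaving out control spots and outlier flags, and every array was brought to the level of 1 reference array, that of rank 12 in median signal, by subtracting the median of the probe differences (shifts −0.874 to 2.03). A probe was tested if no fewer than 4 of the 24 arrays had it well above background (27138 probes). Arrays had 48.3% to 61.25% of probes well above background, and median signals of 16.71 to 105.7, the lowest on day 7 replicate 2. Precision was limited by the number of arrays. limma 3.58.1 in R 4.3.3 (lmFit, eBayes, two-sided) was fitted to the 2 groups compared, with Benjamini-Hochberg adjustment over all probes and no block. The study's methods give the comparison of each day with pre-irradiation and the adjusted threshold, without saying whether animals were paired. Levels of different genes are not compared, and levels of a gene's probes only to pick the brightest. The script was tested on simulated data.

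Groups came from the labels. Arrays of the same number correlated in their deviations from the group means (r = 0.134 to 0.414 on day 3, 0.171 to 0.454 on day 5 and 0.132 to 0.439 on day 7, against medians of −0.0524, −0.0794 and −0.05 for different numbers), so the numbers were taken to pair arrays of an animal. Named factors were those called on all 3 days, the 3 largest calls of each direction on a day, those called between days and a list of well-known factors named whatever their values. The members and lists were chosen with earlier results of these data known. Alternatives covered normalization, background, filter, probe choice, blocks, sex and single animals left out.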

Additional observations from a re-analysis of the deposited data

Results flagged for a closer look

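Dixon's test over 68 groups of 4 to 7 arrays of the named factors set apart 3 arrays, where chance sets apart about 1 group in 20. EIF1AY on day 3 had 1 array at 4.18, with the nearest at 9.46 and a gap of 0.967 of the group's range, and that array came from the only female of the group. EIF5A on day 3 had the same array at 7.67 against 8.43 for the nearest (0.912 of the range). EIF1B on day 7 had replicate 3 at 11.08 against 11.97 (0.734 of the range), and EIF1B stayed called on day 7 with that animal left out. EEF1E1 differed between day 7 and day 3 by 1.357 on the log2 scale in a test of that difference.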

How the results depend on the processing

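With the animal number as replicate block (paired arrays) 2 factors were called on day 3 and 5 on day 7, and none between day 7 and day 3 (0). The count on day 3 was 1 without normalization, 0 under normexp background correction, 8 with the authors' normalized values (28 factors), 1 with slide and 1 with scan session as a block, and 1 to 13 with single animals left out. On day 5 it was 8 under quantile normalization, 1 without normalization, 1 under normexp, 8 with the authors' values, 0 with slide and 6 with session as a block, 23 at an adjusted p under 0.05 (20 lower, 3 higher) and 7 to 12 with single animals left out. On day 7 it was 3 under quantile normalization (1 of them, EIF4G2, higher), 0 without normalization, 1 under normexp and 16 at an adjusted p under 0.05. The single call between day 7 and day 3 became 0 under quantile, no or normexp normalization, the authors' values, no filter, sex, slide or session, without the day 7 array of lowest signal (an alternative chosen after seeing the data) and with any animal left out (0 to 0), and 3 with all groups in 1 fit or at 0.05. Between day 7 and day 5 there was 1 at 0.05. The median change of the factors on day 3 was −0.32 under quantile normalization, −0.74 with the authors' values and −0.55 to −0.33 with animals left out. On day 5 it was −0.24 (quantile), −0.18 (none, where all probes shifted by 0.259), −0.68 (normexp), −0.71 (authors' values) and −0.54 (slide). On day 7 it was −0.089 (quantile), −0.10 (none, all probes shifted by 0.251), −0.16 (normexp) and −0.79 (authors' values). The median of all probes tested also shifted without the filter (−0.253, −0.233 and −0.247), and on day 5 at the 75th percentile (0.106) and under normexp (0.159), and on day 3 with the authors' values (0.101). No called value changed sign, while the sign of uncalled changes turned under some alternatives for EEF1A1 and EEF1E1 on day 7, for EIF4E on days 3 and 7 and for EIF1AY on each day. The cause of these shifts was not tested. Of 997 recomputed values of the named factors, 815 kept their side of the threshold, 171 lost the call and 11 gained it. The 997 include values of factors and days that were not called at first and so had no call to lose. The 815 are therefore not a measure of how often a call was kept. The comparison within 1 scan session was not run for day 3 or day 5 against pre-irradiation or for day 7 against day 3 or day 5, where 1 group had a single array in the shared session.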
